A study of Mus musculus with 6 samples.

Results

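The genes described here copy the genome and divide it: 31 genes chosen by name, 16 of DNA synthesis in S phase and 15 of mitosis. A probe set of the array counted as a member when the platform annotation, updated to current symbols, gave it one of these names and no other. By that rule 30 of the 31 genes were measured, all 16 of S phase and 14 of mitosis, on 65 of the 45037 probe sets, out of 18193 genes with a name of their own. Ccnb1, which encodes cyclin B1, had no such probe set, so its expression was not analysed here, while its promoter was. 1 further probe set, which names Tyms together with its pseudogene, was left out.

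RNA came from lineage-negative bone marrow of adult female mice aged 6 to 16 weeks, a preparation from which cells bearing mature blood markers had been removed so that stem and progenitor cells were enriched. Expression was measured on 6 Affymetrix arrays, 3 of C57B/L6 and 3 of B.D(Chr5), no treatment being named for either strain. The labels give C57B/L6 as the genetic background of the first and B.D as that of the second, whose name carries chromosome 5; they do not describe the chromosome segment further. The 3 arrays of a strain were labelled biological replicates, but not whether each was 1 mouse or a pool, so errors cover the spread between these samples and their number limits the precision. Signals are probe set intensities, scaled by the authors to the same trimmed mean on every array, and one probe set's signal cannot be set against another's as an amount of RNA.

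Marker genes were set against the label. The 8 genes of stem and early progenitor cells that were measured, Kit, Cd34 and Flt3 among them, lay on all 6 arrays above the 95th percentile of the 27 bacterial control probe sets, which served as the background. Markers of mature cells were above it on all 6 arrays too, in 7 of 7 genes of maturing neutrophils, 8 of 8 of B lymphoid cells, 8 of 9 of erythroid cells and 6 of 7 of T and NK cells. The exception among the last was Cd4, which lay at or under the background on all 6. Of 8 stromal and endothelial genes, 5 were above it on all 6 arrays. Of all probe sets, 63.3 to 71.2% lay above this background on each array, so a marker above it says little about which cells were present. In bulk RNA of this kind, fewer cells in cycle and less RNA per cycling cell cannot be told apart.

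Cells replicate their DNA once per cycle. Before S phase the proteins of Cdc6 and Cdt1 load a ring of the Mcm2 to Mcm7 proteins onto origins, and Cdc45 and the GINS complex then turn that ring into the moving helicase that opens DNA for the polymerases. In mitosis the Cdk1 kinase with its cyclins starts the process, Polo and Aurora kinases build the spindle, and the anaphase-promoting complex ends it by marking cyclins and other proteins for destruction. Transcription of many S phase genes is driven by E2F factors. By contrast, many mitotic genes carry a CHR element and CCAAT boxes that are read late in the cycle by the B-Myb and NF-Y complexes. In marrow the most primitive stem cells are largely quiescent, and committed progenitors divide fast.

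The promoters of both groups of genes are shown because they held different elements. RefSeq promoter windows (GRCm38.p6, the C57BL/6J reference, 250 bases before to 50 after each start) were matched for 26 of the 31 genes, all but Mcm4, Gins2, Pole, Aurkb and Ccna2. There were 27 windows, because Mcm7 had 2. They were searched on both strands for E2F motifs (TTCCCGC or TTGGCGC or TTCGCGC or TTGCCGC), for the CHR element (TTTGAA) and for the CCAAT box (CCAAT). An E2F motif lay in 9 of 14 S phase windows (64.3%) and 3 of 13 mitotic windows (23.1%), against 9.57% of all 32851 windows. The CHR element went the other way, in 2 of 14 S phase windows (14.3%) and 9 of 13 mitotic windows (69.2%), against 17.9% of all. A CCAAT box lay in 10 of 14 (71.4%) and 12 of 13 (92.3%), against 37.4%. Matches are letters in a window and not measured binding. Mcm6 shows the S phase pattern, Cdk1 holds both elements, Ube2c shows the mitotic pattern, and Ung has no match to any of them. These 4 were picked after the matches were seen. Each line gives the 250 bases before the start, 5′ to 3′ on the strand of the gene, with matches of the 3 motifs in capitals. In the Mcm6 promoter E2F motifs on opposite strands overlap, so that a single run of capitals holds a pair of them, and a further one lies after the start, outside the stretch shown.

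Mcm6 (chr1:128359706-128359955, reverse strand): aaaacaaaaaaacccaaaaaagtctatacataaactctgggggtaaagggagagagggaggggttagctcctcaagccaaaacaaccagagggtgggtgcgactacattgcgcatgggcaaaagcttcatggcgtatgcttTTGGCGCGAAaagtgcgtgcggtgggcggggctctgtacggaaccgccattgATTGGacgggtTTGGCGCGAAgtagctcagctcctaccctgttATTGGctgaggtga

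Cdk1 (chr10:69352913-69353162, reverse strand): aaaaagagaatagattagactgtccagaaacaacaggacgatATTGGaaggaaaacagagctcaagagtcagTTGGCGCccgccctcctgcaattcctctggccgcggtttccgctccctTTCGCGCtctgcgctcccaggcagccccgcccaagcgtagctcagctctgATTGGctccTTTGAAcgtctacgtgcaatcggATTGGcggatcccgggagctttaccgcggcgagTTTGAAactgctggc

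Ube2c (chr2:164769679-164769928, forward strand): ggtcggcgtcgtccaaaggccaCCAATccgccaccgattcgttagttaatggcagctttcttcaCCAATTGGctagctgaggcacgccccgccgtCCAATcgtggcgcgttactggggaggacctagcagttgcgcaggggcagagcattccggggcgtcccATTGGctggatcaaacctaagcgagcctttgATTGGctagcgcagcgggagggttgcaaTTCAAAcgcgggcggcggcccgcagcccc

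Ung (chr5:114130185-114130434, forward strand): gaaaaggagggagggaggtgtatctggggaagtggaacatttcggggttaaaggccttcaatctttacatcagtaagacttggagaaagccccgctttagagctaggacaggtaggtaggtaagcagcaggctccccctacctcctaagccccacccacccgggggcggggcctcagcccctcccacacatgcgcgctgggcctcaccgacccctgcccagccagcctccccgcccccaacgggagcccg

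In Mcm6 the capitals are a pair of E2F clusters, each with a CCAAT box in inverse orientation downstream. In Cdk1 both E2F motifs lie upstream of both CHR elements. In Ube2c 6 CCAAT matches, a pair of them overlapping, precede a single CHR element 29 bases before the start. CHR matches lay between 15 and 29 bases before the start in Cdk1, Top2a, Ube2c, Kif11 and Cdc20. Cdk1 and Top2a each had another, at -71 and -179. In the other mitotic genes with a match they lay elsewhere: at -167 and +5 in Ccnb2, +31 in Plk1, +33 in Aurka, and -116 and -98 in Mki67.

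**Figure D1:**
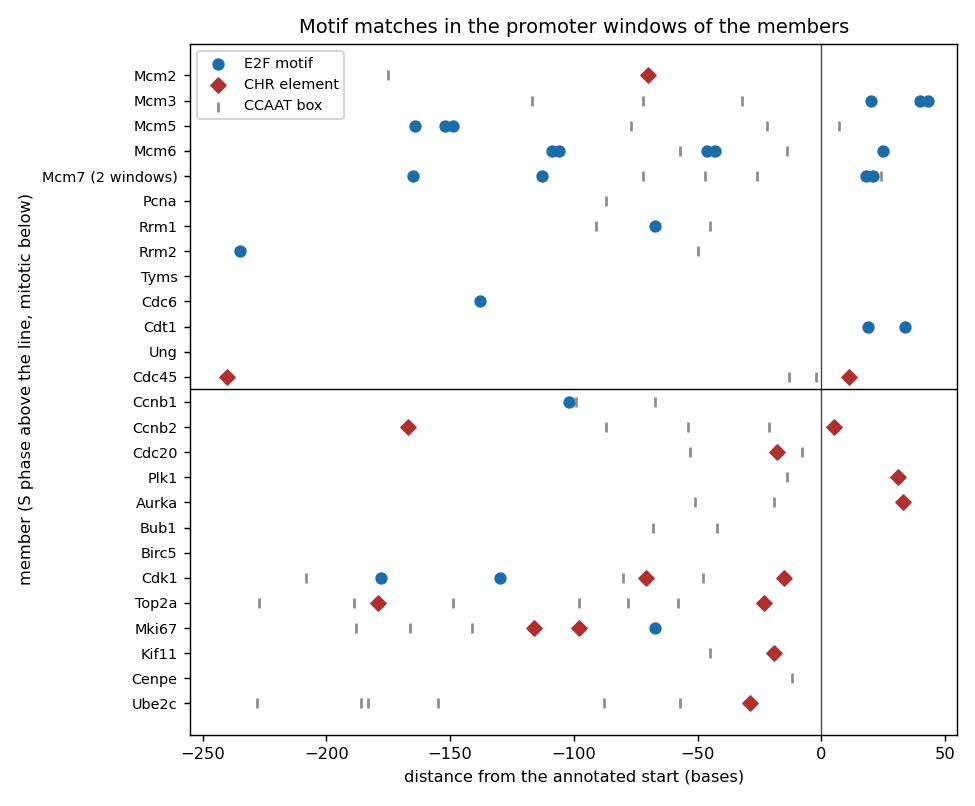
Positions of the motif matches in the promoter windows of 26 members. The horizontal axis is the distance of each match from the annotated start in bases, each row is a gene, blue circles are E2F motifs, red diamonds are CHR elements and grey ticks are CCAAT boxes. E2F motifs lie mostly in the rows of S phase genes (9 of 14 windows) and CHR elements in those of mitotic genes (9 of 13 windows).

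The main question was whether the machinery of division differed between the strains. No member passed the test, and the intervals were narrow. In limma, a linear model fitted to all 22518 tested probe sets on log2(signal + 16), 0 of the 59 tested member probe sets passed an adjusted p of 0.05, against 0.182% of all tested. At an unadjusted p under 0.05 there was 1 of 59, against 4.73% of all. Of the 6 member probe sets that were too dim to be tested, 4 lay above the background on no array and the others, both of Tyms, on 2 arrays. On the brightest tested probe set of each gene, which stands for the gene from here on, differences ran from -0.18 to 0.17 on the log2 scale. All 30 intervals at the 95% level lay within 2-fold in either direction, as did 93.7% of all tested probe sets, and all 30 lay within 1.5-fold, against 67.6% of all tested. Within 1.25-fold lay 22 of 30 (73.3%), against 27.5% of all tested. As 29 of the genes belong to the 25% of all probe sets with the highest mean signal, those are the closer background: of them 98.6% lay within 2-fold, 92.7% within 1.5-fold and 53.1% within 1.25-fold. The intervals of all 59 tested member probe sets lay within 2-fold. Dimmer probe sets of Cenpe, Top2a, Rrm1, Cdc20 and Rrm2 had intervals that reached past 1.5-fold, the furthest to 0.79 on the log2 scale in Cenpe and Top2a.

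Of the helicase genes, Mcm2, Mcm3 and Mcm6 were among the steadiest members over the arrays, and Mcm5 was not. Mcm2 read 6111, 5796 and 5933 on the C57B/L6 arrays and 6106, 5921 and 5979 on the B.D(Chr5) arrays, and its highest array was 1.05 times its lowest. Mcm6 read 9829.5, 10752 and 9843 on the C57B/L6 arrays and 9751, 9849.7 and 9648 on the B.D(Chr5) arrays. In both genes the ranges of the strains overlapped, and the interval of the difference was -0.13 to 0.16 for Mcm2 and -0.20 to 0.092 for Mcm6 (log2). Mcm3 read 6144, 6798 and 6774 on the C57B/L6 arrays and 6545, 6255 and 6815 on the B.D(Chr5) arrays. Mcm4 read 7192, 6603 and 7731 on the C57B/L6 arrays and 6930.2, 7047 and 7101 on the B.D(Chr5) arrays. Mcm5 read 9367, 11394 and 9755 on the C57B/L6 arrays and 10308, 9574 and 9712 on the B.D(Chr5) arrays, with C57B/L6 replicate 2 the highest array. These 3 differed by -0.0068, -0.027 and -0.04 on the log2 scale and overlapped between strains, with intervals that reached at most 1.17-fold, the value for Mcm5. Mcm7, the subunit encoded on chromosome 5, is described with the other genes of that chromosome.

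Genes that load and start the helicase spread further over the arrays, except Cdt1. Cdt1, the loading factor that geminin inhibits, read 11015, 11096 and 9921 on the C57B/L6 arrays and 11314, 11152 and 10203 on the B.D(Chr5) arrays. Cdc6, its partner ATPase, read 3375, 3236 and 2660.1 on the C57B/L6 arrays and 3244, 3640.3 and 3186 on the B.D(Chr5) arrays, lowest on C57B/L6 replicate 3. Its difference of 0.12 was the most positive of the S phase genes, with an interval of -0.11 to 0.36. The strains overlapped for both. Cdc45, the helicase activator, varied most after Tyms: it read 819, 1023 and 704 on the C57B/L6 arrays and 1092, 685 and 993 on the B.D(Chr5) arrays, and within each strain the highest array was well over the lowest, so its interval of -0.31 to 0.53 is wide. Gins2, a subunit of the GINS complex, had a difference of -0.13 with signals of 1450.2 ± 90.9 over the C57B/L6 arrays and 1325 ± 78.2 over those of B.D(Chr5) (SD, n = 3 each), and its other probe set had 0.043.

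The clamp and the enzymes of nucleotide supply also overlapped between strains. Pcna, the sliding clamp that holds polymerases on DNA, read 21294, 20853 and 18779 on the C57B/L6 arrays and 20632, 22065 and 19071 on the B.D(Chr5) arrays, a difference of 0.019. Rrm1 and Rrm2 encode the subunits of ribonucleotide reductase, which makes deoxyribonucleotides. Rrm1 read 7639.9, 6414 and 7363 on the C57B/L6 arrays and 6834, 7933 and 7272 on the B.D(Chr5) arrays, lowest on C57B/L6 replicate 2. Rrm1 had a difference of 0.043 and Rrm2 one of 0.065, with signals for Rrm2 of 7979 ± 811 over the C57B/L6 arrays and 8318 ± 240.1 over those of B.D(Chr5) (SD, n = 3 each). A dimmer probe set of Rrm2 read 4219, 4236 and 2909 on the C57B/L6 arrays and 4541, 4782 and 4272 on the B.D(Chr5) arrays, so that every B.D(Chr5) array lay above every C57B/L6 array. Its difference of 0.28 did not pass (limma adjusted p = 1.00), and C57B/L6 replicate 3 was its lowest array.

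Mitotic genes lay slightly to the other side. Of 14 genes, 11 had positive differences, with a median of 0.044, and of the 16 S phase genes 7 did, with a median of -0.0091. Of all tested probe sets 50.2% were positive, and their median was 3.6e-04. The SD of the S phase list mean was 0.051 over the C57B/L6 arrays and 0.011 over those of B.D(Chr5). For the mitotic list mean these were 0.065 and 0.023, so that the mitotic median lay under the first and over the second. Without C57B/L6 replicate 3 the mitotic median was -4.1e-04. The S phase median was 0.010 without C57B/L6 replicate 2.

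Among the cyclin and kinase genes, Cdk1, the kinase that starts mitosis, read 4139, 4048 and 3535 on the C57B/L6 arrays and 4105, 3821 and 3784 on the B.D(Chr5) arrays, a difference of 0.0011 with an interval of -0.19 to 0.19. Its partner Ccnb2, cyclin B2, read 3920.1, 4013 and 3401 on the C57B/L6 arrays and 3733, 4117 and 3712 on the B.D(Chr5) arrays. Both were lowest on C57B/L6 replicate 3, and both overlapped between strains. Ccna2, cyclin A2, which acts in S phase and at entry to mitosis, read 5566, 4509 and 4875 on the C57B/L6 arrays and 4778, 5916 and 4983 on the B.D(Chr5) arrays. C57B/L6 replicate 2 was its lowest array and B.D(Chr5) replicate 2 its highest, and the difference was 0.067 with an interval of -0.17 to 0.30. Plk1, the Polo kinase, read 1216, 1158 and 1081 on the C57B/L6 arrays and 1254, 1194 and 1226 on the B.D(Chr5) arrays and differed by 0.089. The Aurora kinase genes are Aurka, which acts at spindle poles, and Aurkb, which acts at centromeres. Aurka had signals of 1516 ± 209.6 over the C57B/L6 arrays and 1444 ± 270.4 over those of B.D(Chr5) (SD, n = 3 each) and an interval of -0.42 to 0.26, the widest of the mitotic genes. Aurkb read 1548, 1761 and 1445 on the C57B/L6 arrays and 1766, 1445 and 1569 on the B.D(Chr5) arrays, a difference of 0.0078. Birc5, survivin, which belongs to the same centromeric complex, read 5059.8, 5232 and 4699.9 on the C57B/L6 arrays and 5471, 4803 and 5115 on the B.D(Chr5) arrays, a difference of 0.037. The order of the B.D(Chr5) arrays was the same in both, replicate 1 highest and replicate 2 lowest.

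Bub1, a kinase of the spindle checkpoint, had the most positive difference of all members. It read 1999, 2048 and 1994 on the C57B/L6 arrays and 2254, 2167 and 2379 on the B.D(Chr5) arrays, so the strains did not overlap. The difference of 0.17 had an SE of 0.078 and an interval of -0.0074 to 0.34, and did not pass (limma adjusted p = 1.00). Its other probe set had a difference of 0.18. Cdc20 and Ube2c serve the anaphase-promoting complex, Cdc20 as activator and Ube2c as the enzyme that supplies ubiquitin. Cdc20 read 6779, 7952 and 6728 on the C57B/L6 arrays and 6861, 6576 and 6745 on the B.D(Chr5) arrays, with C57B/L6 replicate 2 above all other arrays. Cdc20 differed by -0.084 and Ube2c by 0.052, with signals for Ube2c of 4419 ± 498 over the C57B/L6 arrays and 4564 ± 189.7 over those of B.D(Chr5) (SD, n = 3 each). Both overlapped between strains.

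Motor and chromosome genes had overlapping strains too. Kif11, the motor that pushes spindle poles apart, read 1898, 1707 and 1747 on the C57B/L6 arrays and 1887, 1929 and 1773 on the B.D(Chr5) arrays and differed by 0.063. Top2a, the topoisomerase that untangles sister chromatids, read 7072, 6834 and 7188 on the C57B/L6 arrays and 7174, 7289.7 and 7512 on the B.D(Chr5) arrays, and its highest array was 1.10 times its lowest. Mki67, which encodes the Ki-67 protein used to score dividing cells, read 7646, 7334 and 7622 on the C57B/L6 arrays and 7179.6, 8342 and 8921 on the B.D(Chr5) arrays. B.D(Chr5) replicates 2 and 3 were its highest arrays and B.D(Chr5) replicate 1 its lowest, so the difference of 0.11 lay inside the spread of one strain. Cenpe, the kinetochore motor, was the 1 member whose probe sets pointed apart by over 0.2: the brighter differed by -0.013 and the dimmer by 0.39, neither of which passed. The brighter read 953, 975 and 1003 on the C57B/L6 arrays and 959, 942 and 1003 on the B.D(Chr5) arrays, the narrowest range of the mitotic genes.

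**Figure D2:**
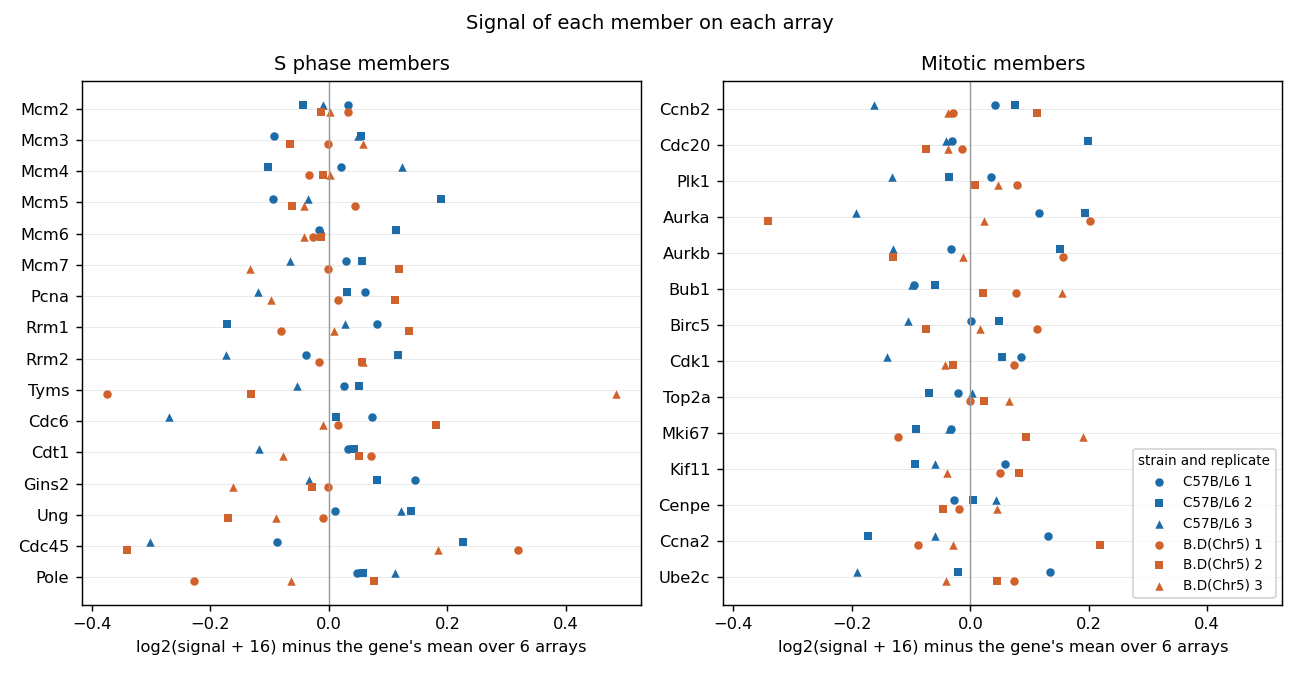
Signal of each member on each array, as log2(signal + 16) minus the mean of that gene over the 6 arrays. Rows are genes, blue symbols are C57B/L6, orange symbols are B.D(Chr5), and circles, squares and triangles are replicates 1, 2 and 3. Blue and orange overlap in every row but those of Ung and Bub1, and Tyms, Cdc45 and Aurka spread most.

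Strains did not overlap in 6 of the 59 member probe sets, against 9.38% of all tested. They belonged to Mcm4, Mcm6, Mcm7 and Ung, lower in B.D(Chr5), and to Rrm2 and Bub1, higher. For Ung and Bub1 this was the brightest probe set; the brightest ones of the other 4 genes overlapped.

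**Figure D3:**
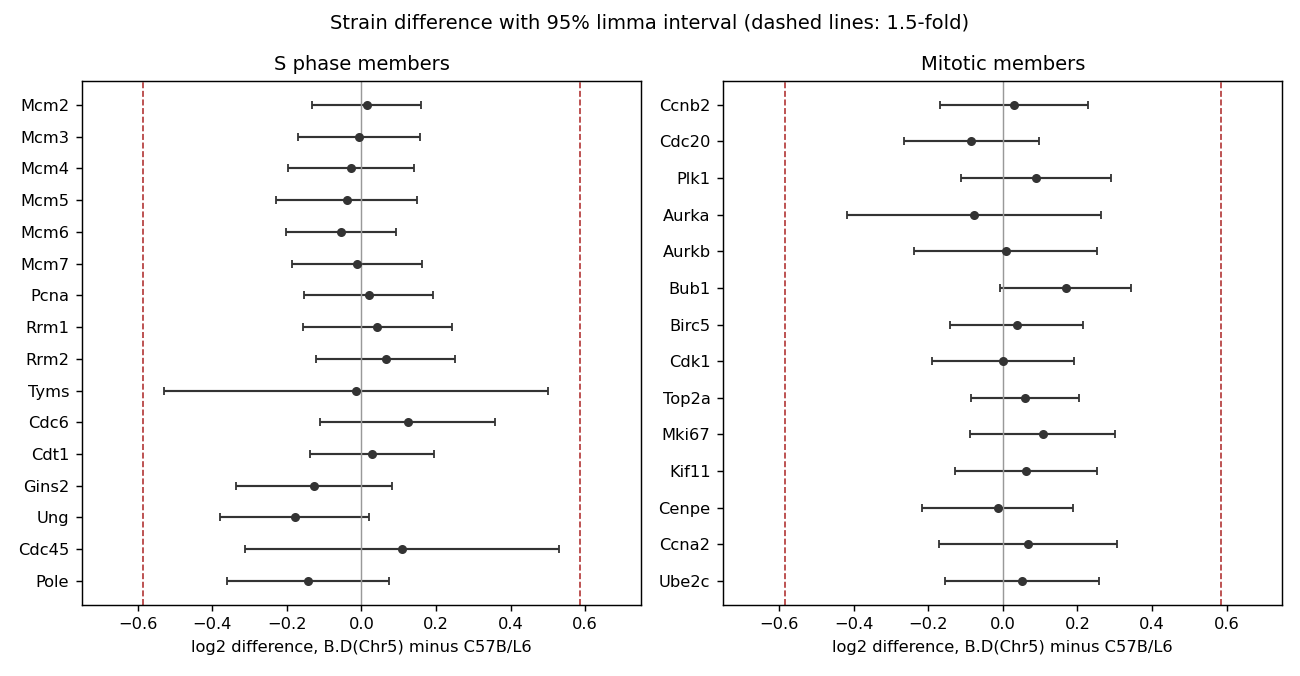
Strain difference of each member on its brightest tested probe set (B.D(Chr5) minus C57B/L6, log2 scale) as a point, with the 95% limma interval as a bar, over 3 arrays per strain. Dashed red lines mark 1.5-fold in either direction, and all 30 bars lie between them, those of Tyms and Cdc45 reaching furthest.

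As the strain is named for chromosome 5, the members encoded there were taken on their own. By the RefSeq annotation they are Mcm7, Tyms, Ung and Pole, all of S phase. All 8 of their tested probe sets had negative differences, whereas 614 of the 1264 tested probe sets of chromosome 5 did (48.6%), and 0 of the 8 passed. Probe sets of 1 gene share its RNA, so these are 4 genes and not 8 independent values. Members of chromosomes 1 and 3 were counted in the same way, and those of further chromosomes were not. Of the 7 tested probe sets of Mcm3 and Mcm6, on chromosome 1, 6 were negative, against 49.3% of that chromosome. Of the 4 of Cenpe and Ccna2, on chromosome 3, 1 was, against 48.9%. Among all tested probe sets, 4 of 1264 were called on chromosome 5, 8 of 1209 on chromosome 1 and 14 of 976 on chromosome 3. Chromosomes 1 and 3 are therefore not free of strain differences. The part of the chromosome in these signs was not tested. Ung, the glycosylase that removes uracil from DNA, read 1489, 1629 and 1609.9 on the C57B/L6 arrays and 1468, 1313 and 1389.7 on the B.D(Chr5) arrays. The strains did not overlap, and the difference of -0.18, the most negative of all members, had an SE of 0.089 and an interval of -0.38 to 0.02 (limma adjusted p = 1.00). Pole, the catalytic subunit of the leading-strand polymerase, read 1751, 1763 and 1832 on the C57B/L6 arrays and 1444, 1786 and 1621 on the B.D(Chr5) arrays, where B.D(Chr5) replicate 2 lay within the C57B/L6 range. Its difference was -0.14, with an interval of -0.36 to 0.074.

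Mcm7 was covered by 4 probe sets. The brightest read 15697, 15989 and 14698 on the C57B/L6 arrays and 15366, 16705 and 14033 on the B.D(Chr5) arrays, with overlapping strains and a difference of -0.011. Another read 6285, 6383 and 6282 on the C57B/L6 arrays and 5580.3, 5812 and 5548 on the B.D(Chr5) arrays, with no overlap. Its difference was -0.16 (limma adjusted p = 0.995), and it is the member probe set counted above at an unadjusted p under 0.05. The other pair had differences of -0.028 and -0.082. Tyms, thymidylate synthase, was read dimly by its own probe sets. The brighter had 165, 169 and 156 on the C57B/L6 arrays and 122, 147 and 233 on the B.D(Chr5) arrays, and its interval of -0.53 to 0.50 is the widest of the members. The signs of Mcm7 and Tyms did not hold with single arrays left out. Leaving out C57B/L6 replicate 2 gave Mcm7 a difference of 0.013, and leaving out B.D(Chr5) replicate 3 gave 0.052. Tyms had 0.0072 when C57B/L6 replicate 2 was left out. It had 0.17 and 0.048 when the first or the second B.D(Chr5) array was, and -0.26 when the third was. Those of Ung and Pole were negative in all 6 such fits.

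Further genes of both processes gave no call either. Of 34 further replication genes, origin, primase, clamp loader and ligase genes among them, 0 passed in either direction, against 0.182% of all tested probe sets. Of the 34, 19 were positive (55.9%, against 50.2% of all tested), and the median difference was 0.012. Fen1, the flap nuclease that trims Okazaki fragments, and Orc1, a subunit of the origin recognition complex, had the smallest p, with differences of 0.19 and 0.21 on the log2 scale. Of 36 further mitotic genes 0 passed, against the same 0.182%. Of the 36, 28 were positive (77.8%, against 50.2% of all tested), and the median was 0.058. Tpx2, a spindle assembly factor, read 1540.0 ± 13.9 over the C57B/L6 arrays and 1785 ± 234 over those of B.D(Chr5) (SD, n = 3 each), with overlap at B.D(Chr5) replicate 2, a difference of 0.20. Dlgap5, a spindle microtubule protein, read 659, 677 and 647 on the C57B/L6 arrays and 741, 751 and 747 on the B.D(Chr5) arrays, with no overlap and a difference of 0.17. Of the 86 tested probe sets of these mitotic genes, 16 had strains that did not overlap (18.6%, against 9.38% of all tested), 13 of them higher in B.D(Chr5). By the brightest probe set of each gene it was 3 of 36 (8.33%), near the share of all tested.

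Markers of several cell types lay to one side in B.D(Chr5), although 0 of the marker genes passed, against 0.182% of all tested probe sets. Unadjusted p in limma was under 0.05 in 5 of 7 granulocyte-monocyte progenitor and 5 of 7 maturing neutrophil genes, against 4.73% of all tested. It was so in 6 of 7 mast cell, basophil and eosinophil, 3 of 7 B lymphoid and 3 of 6 T and NK genes. For stromal and endothelial genes it was 3 of 6, and for stem and progenitor and for erythroid genes 1 of 8 each. All 7 measured genes of granulocyte-monocyte progenitors were higher in B.D(Chr5), with summed signals of 55513 to 61667 on the C57B/L6 arrays and 64861 to 92531 on the B.D(Chr5) arrays. All 8 genes of stem and early progenitor cells were lower, with sums of 14378 to 16900 and 12772 to 14575. Sums of maturing neutrophil genes, 7 of 7 higher, ran from 43559 to 48764 and from 52462 to 72932. The sums of the strains therefore did not overlap for the granulocyte-monocyte progenitor and neutrophil lists, and did for the stem cell list. Those of mast cell, basophil and eosinophil genes, 7 of 7 higher, ran from 5835 to 6711 and from 6369 to 15050. Erythroid sums overlapped, at 58578 to 70391 and 58398 to 73841, with 2 of 8 tested genes higher. B lymphoid genes were higher in 7 of 7 tested, and their sum of 7688 on B.D(Chr5) replicate 3 stood above the 2570 to 3531 of the other arrays. T and NK genes, 2 of 6 tested higher, summed to 2941 to 4198 and 2527 to 3900. Stromal and endothelial genes, 6 of 6 tested higher, summed to 1503 to 3215 and 3080 to 4664. The share of probe sets above the background was 69.3 to 71.2% on the C57B/L6 arrays and 63.3 to 68.8% on the B.D(Chr5) arrays. That background was set on each array, at 21.8 to 24.4 on the C57B/L6 arrays and 23.4, 31.8 and 38.0 on the B.D(Chr5) arrays. B.D(Chr5) replicate 3 had the lowest share and also the highest median signal, 79.5, so the share is no count of expressed genes. The part of these markers and of that share in the member differences was not tested.

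The last question was whether the members varied together over the arrays, which would serve as a measure of cycling. They varied little at all. The mean of the 16 S phase genes spanned 0.10 on the log2 scale over the 6 arrays, 1.07-fold, and that of the 14 mitotic genes 0.13, 1.10-fold. The S phase mean was 12.05 ± 0.051 over the C57B/L6 arrays and 12.04 ± 0.011 over those of B.D(Chr5), and the mitotic mean was 11.58 ± 0.065 and 11.62 ± 0.023 (log2, SD, n = 3 each). The first strain's 3 arrays spread more than the second's in both lists. C57B/L6 replicate 3 was the lowest array in both, and held the lowest value of 4 S phase and 6 mitotic genes. The S phase mean exceeded the mitotic mean by 0.39 to 0.49 on every array, a difference between probe sets that has no meaning as an amount.

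**Figure D4:**
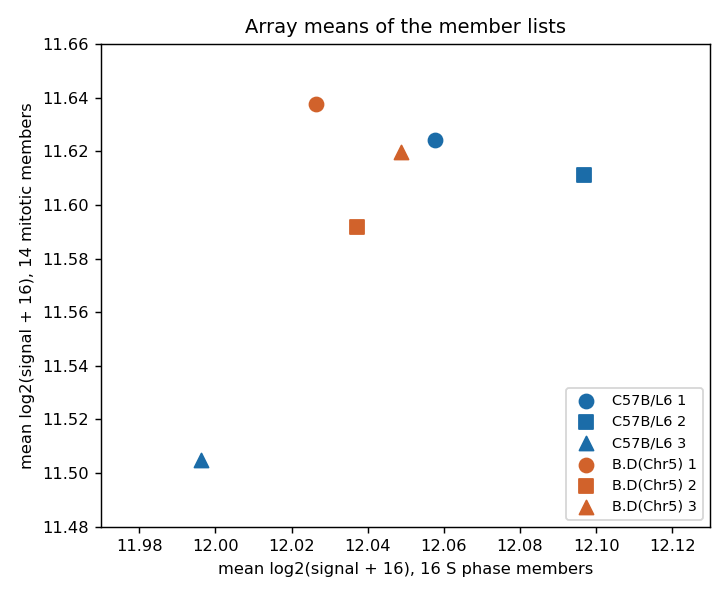
Mean log2(signal + 16) of the 14 mitotic members (vertical axis) against that of the 16 S phase members (horizontal axis), 1 symbol per array, blue for C57B/L6 and orange for B.D(Chr5). Both axes span under 0.2 log2 units. C57B/L6 replicate 3 lies apart at the lower left, and over the other arrays r was -0.20.

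Between both means Pearson's r was 0.61 and Spearman's rho 0.26 over the 6 arrays, given as a description with no test. It rested on few arrays: r was -0.20 without C57B/L6 replicate 3, and -0.086 without C57B/L6 replicates 2 and 3, the arrays farthest from the median of the S phase mean. With each strain's mean subtracted r was 0.78 and rho 0.60.

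Single members correlated weakly over the arrays. The mean pairwise r over the arrays was 0.0064 among S phase genes and 0.12 among mitotic genes, and 0.039 between the lists. As background it was 0.0013 over all tested probe sets. Over the 25% of all probe sets with the highest mean signal, where 29 of the 30 genes lie, it was 0.012. Over the tenth of the tested probe sets with the highest signal, where 18 of the 30 lie, it was 0.12. The mitotic value thus lay near the last of these backgrounds and above the others. With each strain's mean subtracted the values were 0.011, 0.088 and 0.063. The backgrounds, in the same order, were then 0.0014, 0.013 and 0.13. The further replication genes had a mean of 0.19 and the further mitotic genes 0.13, or 0.21 and 0.074 with the strain means subtracted. Of the 435 pairs of members, 85 had r above 0.5 and 81 had r below -0.5. The same shares were not taken over pairs of all tested probe sets. These counts, and the extreme pairs picked from the 435, therefore have no background and describe these arrays only. The highest values were 0.94 for Cdc45 with Birc5, for Mcm6 with Cdc20 and for Aurkb with Birc5. The first and second of these cross the lists, and the highest pair within S phase was Mcm7 with Pcna, at 0.93. The lowest were Pcna with Cenpe at -0.96, a pair across the lists, and Mcm5 with Rrm1 at -0.93, although Mcm5 and Rrm1 are both S phase genes. Among mitotic genes 6 of 14 had r above 0.5 with the mean of the others, Plk1 (0.91), Cdk1 (0.83), Birc5 (0.77) and Ube2c (0.77) at the top. Without C57B/L6 replicate 3 the mitotic mean pairwise r was -0.038. Among S phase genes 2 of 16 had r above 0.5 with the others, Rrm2 (0.75) and Mcm6 (0.66), while Mcm4 had -0.87. All these points share the array, its labelling and its scaling.

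**Figure D5:**
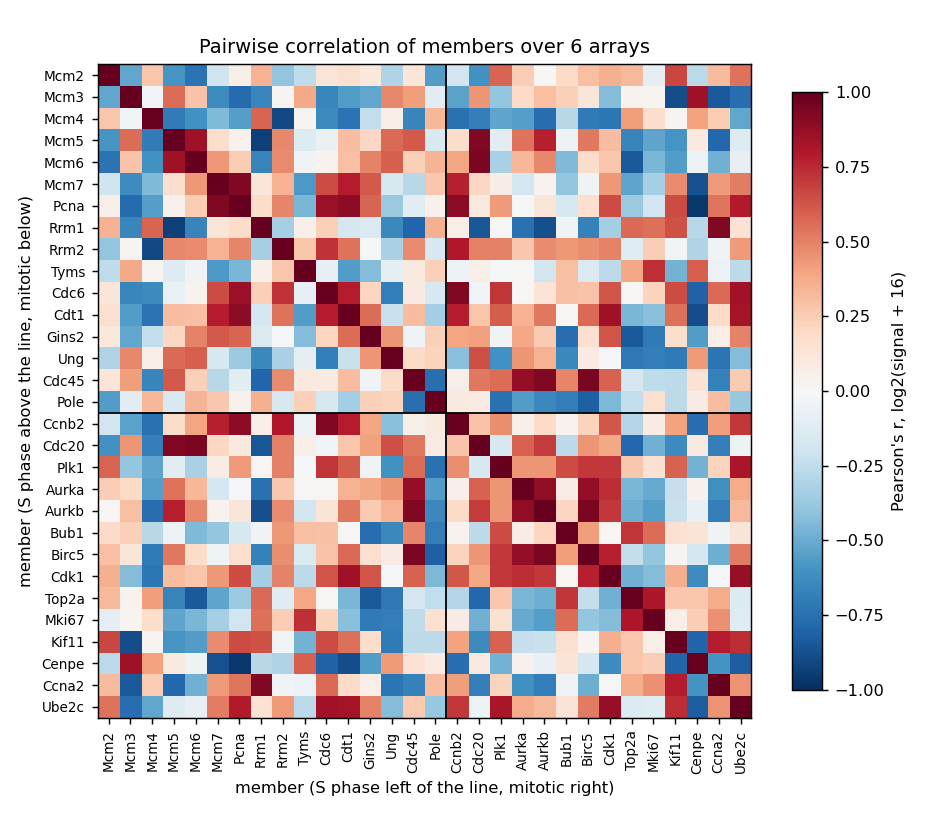
Pearson's r of every pair of the 30 measured members over the 6 arrays (log2 scale), red for positive and blue for negative values, with black lines between S phase and mitotic genes. Red and blue are mixed in every block, and the mean of the block is 0.0064 for S phase genes, 0.12 for mitotic genes and 0.039 between them.

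Probe sets of one gene give a measure of how much of this variation is shared signal. Over 43 pairs of probe sets of 19 members, r had a mean of 0.33 and a median of 0.50, and 11 pairs were below 0. The mean pairwise r was 0.0013 over all tested probe sets and 0.12 over the tenth of them with the highest signal. Over the 25% of all probe sets with the highest mean signal it was 0.012. Mcm3, with 5 tested probe sets, and Mcm7, with 4, gave the most of these same-gene pairs, so the pairs are not independent. The probe sets of Aurkb correlated at 0.94 and those of Cdt1 at 0.94, whereas those of Mcm4 did at -0.53 and of Cdc45 at -0.54. Differences between strains had the same sign in 29 of the 43 pairs. The mean pairwise r also moved with the scaling. With each array centred on its own median, it was 0.33 among S phase and 0.45 among mitotic genes. These medians, taken over all probe sets and therefore among dim ones, spanned 0.24 on the log2 scale, more than either list mean, and centring takes the same amount from every member of an array.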

How the data were processed

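The authors deposited probe set intensity values on a linear scale for 6 arrays, and the submitters' processing notes name MAS5, with no version. In the files the values of each array had a mean of 500 after 2% was trimmed at each end. No pair of arrays was identical (0 pairs). After 64 controls were dropped, 45037 probe sets were left: 34945 with 1 gene symbol, 932 with several and 9160 with none. Symbols were updated through Entrez identifiers to the RefSeq table of GRCm38.p6, which held 34741. The platform annotation can be old.

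The strain difference was fitted with limma 3.58.1 in R 4.3.3 on log2(signal + 16), strain being the only term, with eBayes and trend, two-sided, over the 50% of probe sets with the higher mean over all arrays, and Benjamini-Hochberg adjustment at 0.05. Intervals are limma's at 95%. The pseudocount understates changes of dim probe sets. The fit was tested on simulated data. Correlations are descriptions and have no p-value.

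The rule for named genes took all members, the called or otherwise the 2 lowest-p genes of each further list, and other probe sets of a member where signs differed by over 0.2. Members and lists were chosen with earlier results of these data known, and the chromosome 5 genes and the pairs of probe sets were looked at after the fit. Alternatives covered pseudocounts of 1 and 64, the filter, quantile normalization, median centring, eBayes without trend, a replicate block, averaging the probe sets of a gene, leaving out shared probe sets (_x_at and _s_at), and leaving out each array.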

Additional observations from a re-analysis of the deposited data

How the results depend on the processing

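In every setting tried 0 members were called, and 0 of the other replication and mitotic genes in every setting but averaging probe sets, which was not run for these lists (0 to 3 member probe sets had an unadjusted p under 0.05), although the calls over all probe sets, 41 as reported, ran from 22 without B.D(Chr5) replicate 1 to 74 without B.D(Chr5) replicate 2, with 23 and 24 without C57B/L6 replicates 2 and 3. They were 70 after median centring, 26 without trend, 24 over gene means and 23 without _x_at and _s_at probe sets. All members tested stayed within 2-fold in each setting, and 28 to 30 within 1.5-fold (29 of the 29 left by keeping the brightest 25% of probe sets). Of 478 recomputed member differences, 470 moved by less than their SE. Signs changed for 12 of 30 members without C57B/L6 replicate 3 and for 8 without B.D(Chr5) replicate 2, so their directions are not settled.

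Leaving out single arrays moved the S phase median between -0.030 and 0.010, the mitotic median between -4.1e-04 and 0.061, the mean pairwise r between -0.023 and 0.029 (S phase) and between -0.038 and 0.18 (mitotic), and the r of both list means between -0.20 and 0.81. Members called stayed at 0 and members within 2-fold at 30. Median centring gave a mean pairwise r of 0.33 for S phase and 0.45 for mitotic genes, and averaging the probe sets of a gene gave 0.14 and 0.27; the cause of the latter was not tested. With a replicate block 25 probe sets were called over all, 0 of them members, and the S phase r was -0.049. The replicate numbers did not pair the arrays throughout: deviations of same-numbered arrays correlated at -0.11, -0.20 and 0.19 for replicates 1, 2 and 3. Between arrays of different numbers, C57B/L6 replicate 1 correlated at 0.29 with B.D(Chr5) replicate 2. C57B/L6 replicate 2 did at 0.25 with B.D(Chr5) replicate 1, and the remaining combinations of different numbers were negative. Each array thus correlated positively with a single array of the other strain. Whether arrays of the strains shared a batch in another order was not tested, and no fit takes account of it.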
